A study of Mus musculus with 12 samples.

Results

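Conventional CD4 T cells were taken from the single cell transcriptomes of CD4/CD8 bead-selected cells of mouse breast tumors. They are the cells in which transcripts of *Cd4* and of *Cd3e*, a chain of the T cell receptor complex, were captured and transcripts of *Cd8a*, *Cd8b1*, *Foxp3* and *Csf1r* were not. The members were chosen by measured values. Captured molecules were counted by their unique molecular identifiers (UMIs), and a member had at least 1 UMI of *Cd4* and of *Cd3e* and 0 of the other 4 genes. Cells were kept when they had at least 200 detected genes and under 10% mitochondrial UMIs. This left 19528 of 23101 barcodes, among which 412 were members (2.11% of the cells kept, 95% CI 1.91 to 2.32). They were compared with 12428 CD8 T cells, which had at least 1 UMI of *Cd8a* and of *Cd3e* and 0 of *Cd4*. The values of the 6 genes of the rule are a description, and these genes were left out of the comparison.

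The tumors arose spontaneously in female PyMT mice, which carry the polyoma middle T oncogene under the MMTV promoter and express it in the mammary gland. PyMT-PAR2 WT mice have the wild-type receptor, and PyMT-PAR2 G37I mice carry a change in protease-activated receptor 2 (PAR2, gene *F2rl1*) that makes it resistant to cleavage by coagulation factor Xa. The transgene was common to both genotypes, no drug was given, the tumors were of middle size, and the age at which the cells for sequencing were taken is not stated separately in the sources used here. The experiment had 3 biological replicates of each genotype, pooled in 1 matrix of 6 samples whose barcodes name no sample, so no genotypes were compared and no p-value is given. In the matrix the barcodes run through the alphabet 6 times, and these 6 stretches are called runs here. Which sample or genotype a run came from is not known here.

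CD4 T cells recognize peptides on MHC class II and act mainly through surface ligands and cytokines, among them CD40 ligand, which licenses dendritic cells and B cells. They differentiate into helper types that make IFN-γ (Th1), IL-4, IL-5 and IL-13 (Th2) or IL-17 (Th17), or that help B cells (Tfh), whereas Foxp3 marks regulatory T cells (Tregs). In tumors, helper cells sustain CD8 T cells, which kill through perforin and granzymes.

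The members were spread unevenly over the runs. Run 1 held 257 members, which were 5.01% of its cells kept (95% CI 4.43 to 5.64). Run 4 held 92, or 4.50% (3.64 to 5.49), and run 5 held 22, or 1.19% (0.745 to 1.79). Runs 2, 3 and 6 held 11, 16 and 14 members, with shares of 0.469%, 0.475% and 0.293%. Run 1 thus contributed 62.4% of the members and 20.4% of the CD8 T cells, and run 4 contributed 22.3% and 10.8%. Of the members and CD8 T cells combined, the members were 9.21% in run 1 and 0.434% in run 6. The cells had been selected with CD4 and CD8 beads, frozen and thawed, and the part of these steps in the share was not tested. All shares have exact Clopper-Pearson intervals, and all intervals here cover counting error only.

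**Figure D1:**
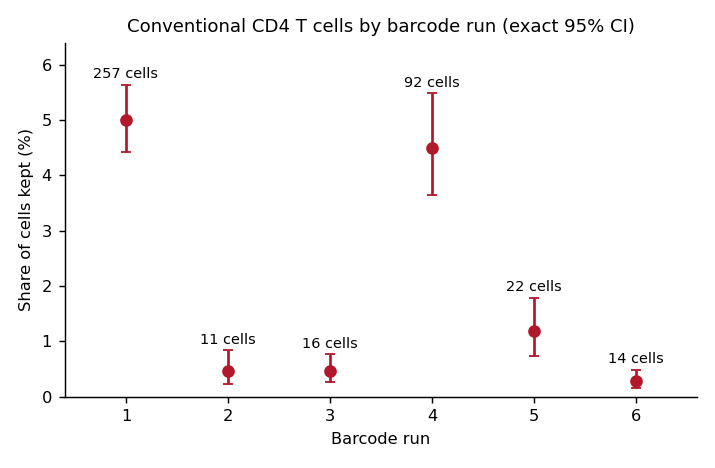
Share of conventional CD4 T cells among the cells kept (y axis, percent) in each of the 6 barcode runs (x axis), with the number of members above each point and exact 95% intervals as bars. Runs 1 and 4 stand at 5.01% and 4.50%, above the other runs, which lie between 0.293% and 1.19%.

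The members had a median of 4274 UMIs and 1557 detected genes, and 4.32% mitochondrial UMIs. The CD8 T cells had a median of 5036 UMIs and 1730 genes. Over all members 1960883 UMIs were counted, so that 1 UMI is worth 0.510 CPM, the scale of every level below, on which the UMIs of a class are scaled to a sum of 1000000. The CD8 T cells had 76322002 UMIs. Of the barcodes, 51 occurred in more than 1 run, and 3 members carried such a barcode.

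At the edges of the rule the *Cd4* signal was thin. Among the members 236 had a single *Cd4* UMI and 176 had 2 or more, and the highest value was 7. *Cd40lg* stood at 79.6 CPM in members with 1 *Cd4* UMI and at 68.8 CPM in those with more, and *Tnfrsf4* at 583 and 661 CPM. Just outside, 721 cells met every condition except that they had 0 *Cd4* UMIs, and they held 39.3 CPM of *Cd40lg* and 243 CPM of *Tnfrsf4*. A further 157 cells lacked a *Cd3e* UMI (*Cd40lg*, 99.4 CPM), and 24 were set aside for a *Foxp3* UMI (*Cd40lg*, 10.2 CPM). Another 291 cells had UMIs of *Cd4* and of *Cd8a* or *Cd8b1*, and 42 had a *Csf1r* UMI.

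The label was set beside marker lists. T cell genes stood at similar levels in both classes. *Trac*, the constant region of the T cell receptor α chain, was at 737 CPM in members (95% CI 699 to 776) and 651 CPM in CD8 T cells, and 88.6% of members had a *Trac* UMI. None of the 10 T cell genes was called in either direction. Both classes were chosen with a *Cd3e* UMI, and most compared genes were called in neither direction. The likeness of T cell genes is therefore no check of the label. A gene was called higher when its level in the members was at least 2-fold that in the CD8 T cells (1 UMI added to each sum) and higher in each of the 3 runs with at least 20 cells of both classes (runs 1, 4 and 5). It was called lower at 0.5-fold or less under the same condition. Where an alternative left fewer such runs, direction was asked in those runs only. Of 6918 genes with a mean level of at least 10 CPM over both classes, 253 (3.66%) were called higher and 144 (2.08%) lower, and the median log2 fold over all of them was 0.03. Of the called genes, 127 were higher and 104 lower in all 6 runs. These calls are a rule of size on 1 pooled sample and not a test. A gene below 10 CPM in a class could pass the filter only with a higher level in the other class. Its direction over the summed cells was then fixed by the filter.

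Genes of other cell types were counted in some members, and much of their UMIs lay in 3 members, all in the cluster numbered 4 below. One cell of 25454 UMIs held 841 UMIs of the 7 epithelial genes, or 77.5% of all such UMIs in members. A second, of 15721 UMIs, held 709 UMIs of the 8 dendritic cell genes (79.6%), and the third, of 15608 UMIs, held 176 UMIs of the 8 plasmacytoid dendritic cell genes (26.5%). Summed over the lists, epithelial genes were at 553 CPM in members and 222 CPM in CD8 T cells, and over the runs they ranged from 84.0 to 761 CPM and from 45.6 to 659 CPM. Without the 3 members the epithelial sum was 127 CPM and the dendritic cell sum 43.1 CPM, both below the CD8 T cells. The 3 were picked for the most UMIs of these lists, and no CD8 T cell was left out. Levels and calls without them are therefore a description and no test. Dendritic cell genes were at 454 and 125 CPM, with ranges of 0 to 624 CPM and 16.0 to 305 CPM, and macrophage genes at 236 and 606 CPM, with ranges of 21.98 to 1615 CPM and 119 to 2355 CPM. *Cd74*, the invariant chain of MHC class II, was called higher at 225 CPM against 57.5 CPM, and without the 3 members it stood at 22.6 CPM, below the CD8 T cells, and of the 3 compared dendritic cell genes 0 were then called higher and 2 lower. Without these members 237 genes were called higher and 157 lower. When all cells with a UMI of 8 markers of other lineages were left out of both classes, 340 members remained. Direction was then asked in 2 runs, and 264 genes were called higher and 145 lower, among them 215 of the 253 and 122 of the 144. The B cell marker *Ms4a1* had 0 UMIs in members, *Trdc*, the constant region of the γδ receptor, had 1, and fibroblast genes were at 3.06 CPM in all.

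Of the genes called higher, CD40 ligand had the highest ratio. *Cd40lg* (chromosome X, 57212143 to 57224042, plus strand, GRCm38, protein coding) was at 74.5 CPM in members (95% CI 62.9 to 87.6) and at 1.06 CPM in CD8 T cells (0.843 to 1.32), a ratio of 69.8 (53.1 to 93.2). Of the members 98 (23.8%, 19.8 to 28.2) had a *Cd40lg* UMI, against 0.491% of the CD8 T cells and 0 of 871 macrophages (*Csf1r*-positive, *Cd3e*-negative cells with a median of 18412 UMIs). The 0 of 871 allows a share of cells with a UMI of up to 0.344% by the 3-count limit, and the exact upper bound is 0.423%. With every cell thinned to 2000 UMIs, the shares were 12.9% of 402 members and 0.188% of 12250 CD8 T cells. Thinning left out 10 members and 178 CD8 T cells with fewer UMIs. Across the runs the level in members ranged from 54.4 CPM in run 1 to 151 CPM in run 3. In CD8 T cells it ranged from 0.425 to 1.87 CPM. Direction in runs 1, 4 and 5 was part of the call, and runs 2, 3 and 6 held only 5, 10 and 3 UMIs in members. Without run 1 the ratio was 117, and in run 1 alone it was 28.4.

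**Figure D2:**
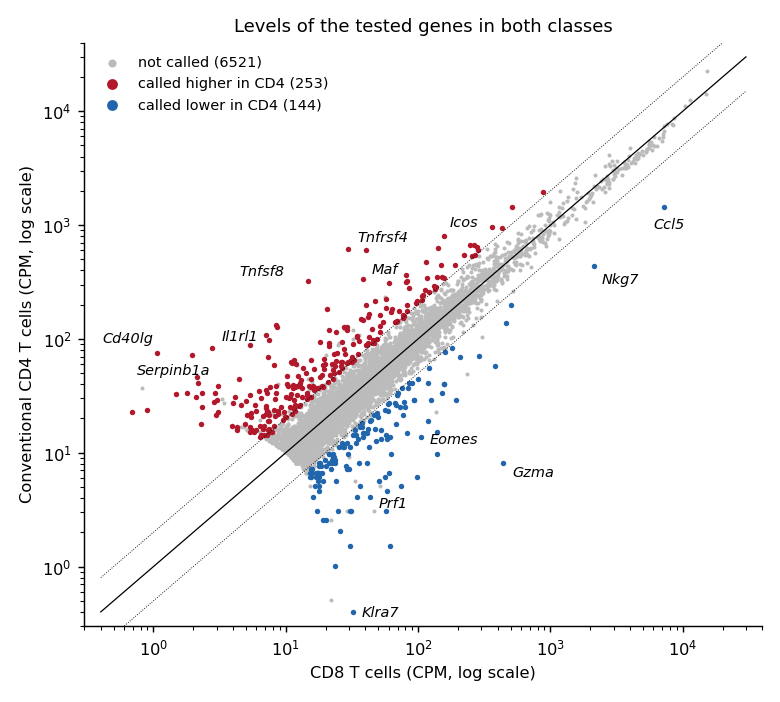
Level of each of the 6918 compared genes in CD8 T cells (x axis) and in conventional CD4 T cells (y axis), in CPM on log scales, with equality as a solid line and 2-fold differences as dotted lines. The 253 genes called higher (red) include *Cd40lg* at 74.5 against 1.06 CPM and the 144 called lower (blue) include *Gzma* at 8.16 against 441 CPM. *Klra7*, with 0 UMIs in members, is drawn at the lower edge.

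*Tnfrsf4*, which encodes the costimulatory receptor OX40, was at 620 CPM in members (585 to 655) and 29.7 CPM in CD8 T cells, a ratio of 20.9 (19.5 to 22.4), and 69.9% of members had a UMI against 7.72% of CD8 T cells and 1.26% of macrophages. Its level ranged over the runs from 347 to 962 CPM in members and from 16.3 to 47.8 CPM in CD8 T cells. *Tnfsf8*, the gene of CD30 ligand, was at 321 and 14.6 CPM (ratio 21.9). In members it was highest in run 4 (751 CPM) and run 5 (420 CPM) and between 90.6 and 198 CPM elsewhere, above the 9.43 to 19.4 CPM of CD8 T cells in every run. *Tnfrsf25*, the gene of death receptor 3, was at 46.4 and 2.15 CPM (ratio 21.7), and *Tnfsf11*, which encodes RANKL, at 182 and 20.6 CPM (ratio 8.85). All 4 genes were higher in each of the 6 runs, but for *Tnfrsf25* this rested on 2, 1, 3 and 2 UMIs in members in runs 2, 3, 5 and 6. In the 24 *Foxp3* cells *Tnfrsf4* stood at 2243 CPM, *Tnfrsf25* at 76.8 CPM, *Tnfsf8* at 81.9 CPM and *Tnfsf11* at 10.2 CPM.

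The promoter of *Tnfrsf4* is shown because this gene was detected in the most members among those of highest fold. The window runs from 250 bases before to 50 bases after the RefSeq start (GRCm38.p6, chr4:156013445-156013744, plus strand), and capitals mark the core of the NFAT motif, TGGAAA, searched on both strands. NFAT is a factor that calcineurin activates downstream of the T cell receptor. Of the 20 genes of highest fold, 15 had a promoter in the table, with 19 start sites in all. The core was in 4 of the 19 windows (21.1%; *Tnfrsf4*, *Il1rl1*, *Nav2* and *Tiam1*), against 21.4% of 32817 windows of all genes. The AP-1 motif TGANTCA was in 2 of the 19 (10.5%; *Ccr4* and *Tiam1*), against 7.81% of all.
Tnfrsf4: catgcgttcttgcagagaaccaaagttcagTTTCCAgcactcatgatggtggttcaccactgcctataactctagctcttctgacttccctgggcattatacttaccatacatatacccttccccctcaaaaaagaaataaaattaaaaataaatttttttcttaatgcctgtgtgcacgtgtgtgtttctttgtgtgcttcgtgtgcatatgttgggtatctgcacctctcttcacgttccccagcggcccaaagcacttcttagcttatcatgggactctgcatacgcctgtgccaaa

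Of 8 genes of costimulatory receptors, all compared, 4 were called higher and 0 lower. *Icos*, a CD28 relative induced on activation, was at 806 CPM (767 to 847) against 157 CPM, a ratio of 5.14, and 82.5% of members had a UMI against 45.4% of CD8 T cells. It ranged from 332 to 857 CPM over the runs in members and from 92.9 to 231 CPM in CD8 T cells. *Slamf1* (121 and 21.2 CPM) and *Tnfrsf18*, which encodes GITR (448 and 150 CPM), were the other two. *Cd28* (502 and 338 CPM), *Tnfrsf9* (98.4 and 88.1 CPM), *Cd226* (36.2 and 36.8 CPM) and *Cd27* (151 and 276 CPM) were not called, although *Cd27* was lower in all 6 runs. Of the list 1 gene was called lower in run 1 alone, without members with *Ikzf2* or *Il2ra* UMIs and without the cluster numbered 4.

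**Figure D3:**
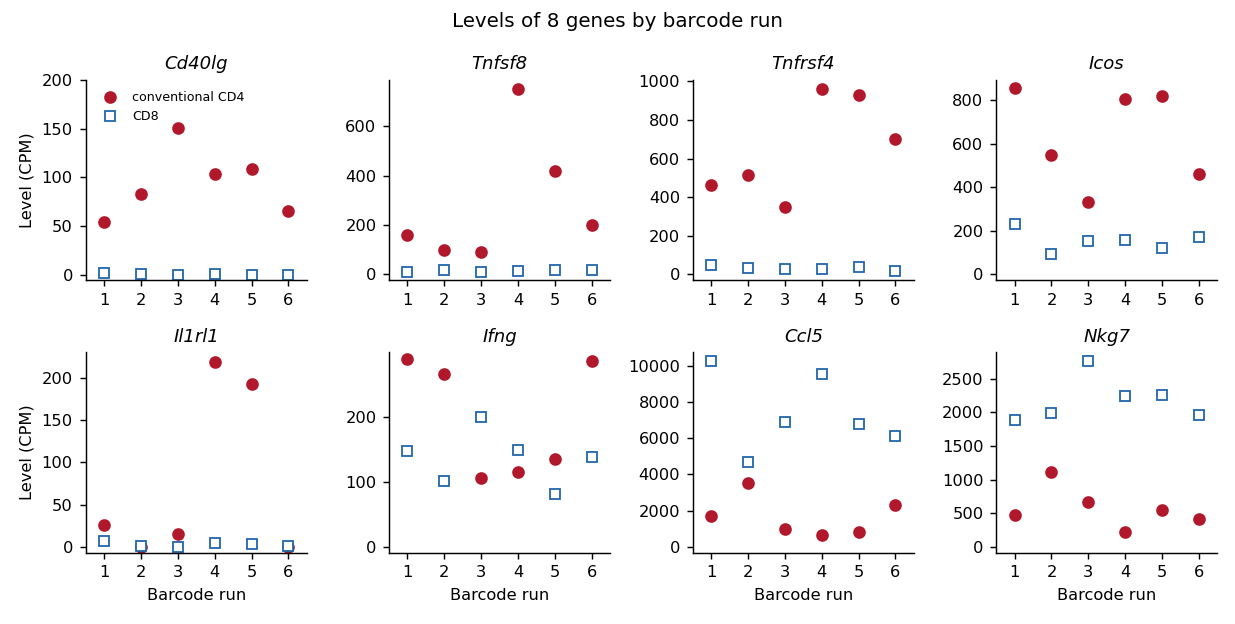
Level (y axis, CPM, from 0) of 8 genes in each barcode run (x axis) in conventional CD4 T cells (filled red circles) and CD8 T cells (open blue squares), with no error bars. *Cd40lg*, *Tnfsf8*, *Tnfrsf4* and *Icos* were higher and *Ccl5* and *Nkg7* lower in members in all 6 runs, whereas *Il1rl1* reached 219 and 193 CPM only in runs 4 and 5 and *Ifng* was higher in 4 runs.

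Among genes tied to the CD4 lineage, 7 of 8 passed the level filter, of which 4 were called higher and 1 lower. *Cd5*, a brake on receptor signaling, was at 277 and 85.5 CPM, *Gata3*, a factor of CD4 commitment and of Th2 cells, at 171 and 62.1 CPM, and *Izumo1r*, which encodes folate receptor 4, at 58.6 and 8.22 CPM. *Tox* was lower (76.5 and 160 CPM). *Zbtb7b*, the gene of the CD4 lineage factor ThPOK, was below the filter, with 14.8 CPM in members (9.90 to 21.2, 29 UMIs in 28 cells) and 2.36 CPM in CD8 T cells.

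Genes of the CD8 lineage and of killing were lower. Of 8 CD8 lineage genes, 7 were called lower and 0 higher. *Nkg7*, which is required for granule release, was at 439 CPM (410 to 469) against 2144 CPM, and 54.4% of members had a UMI against 99.0% of CD8 T cells and 11.02% of macrophages. *Eomes*, a factor of effector and memory CD8 T cells, was at 13.8 and 105 CPM. Of the 6 compared genes of cytotoxic granules, 4 were lower. *Gzma* was at 8.16 CPM (16 UMIs in 13 cells) against 441 CPM, 50.8-fold lower (33.3 to 94.5). In members it was at 0 in runs 2, 3 and 5 and between 8.12 and 21.98 CPM in the others, and in CD8 T cells it was between 169 and 798 CPM. *Gzmb* (57.6 and 378 CPM, with 79 of its 113 UMIs in 1 member), *Gzmk* (68.8 and 207 CPM) and *Prf1*, which encodes perforin (4.08 and 43.2 CPM), were also lower, whereas *Srgn*, the proteoglycan of the granules, was at 2003 and 1184 CPM.

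The other genes of lowest fold included receptors of natural killer type and γδ receptor genes. *Klra7*, of the Ly49 family, had 0 UMIs in members, against 32.2 CPM in CD8 T cells, at least 21.1-fold lower when the floor is set at 3 UMIs over all members (1.53 CPM). *Klre1*, *Klrc2* and *Klrc1* were at 3.06, 5.10 and 15.3 CPM in members and at 57.3, 73.9 and 138 CPM in CD8 T cells. *Tcrg-C4* had 3 UMIs in members, and the level in CD8 T cells (61.7 CPM) was 30.3 times as high (13.8 to 196). *Tcrg-C2* was at 9.69 and 140 CPM. All 4 compared γδ receptor genes were lower, and *Tcrg* constant regions resemble each other, so reads could be divided between them. Further genes among the 20 of lowest fold were *Adgrg5*, *Dapl1*, *Bend4*, *Cd160*, *Trgv2*, *Wdr95*, *Crtam*, *Car2*, *Dapk2*, *Chst12* and *Ccl3*, between 7.499-fold (*Ccl3*) and 15.3-fold (*Adgrg5*) lower. *Adgrg5* had 2 UMIs and *Dapl1* 3 in members, with intervals of the fold of 6.36 to 190 and 6.80 to 96.6. *Trgv2* was lower in 5 of 6 runs and the other genes of the 20 in 6 of 6. In runs 2, 3, 5 and 6, 1 UMI in members is worth 16.6, 15.1, 8.40 and 21.98 CPM. Many of these genes had 0 UMIs there, which counted as lower, so these runs add little.

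Chemokine ligands were lower in 3 of 6 genes. *Ccl5*, a chemokine that draws T cells, was at 1442 CPM (1390 to 1496) against 7181 CPM. It ranged from 651 CPM in run 4 to 3524 CPM in run 2 in members and from 4673 to 10262 CPM in CD8 T cells. *Ccl4* was at 33.7 and 151 CPM, with 50 of its 66 UMIs in 1 member. *Ccl1* stood at 36.7 CPM (72 UMIs in 12 cells, 24 of them in 1 cell) against 0.825 CPM and was not called.

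**Figure D4:**
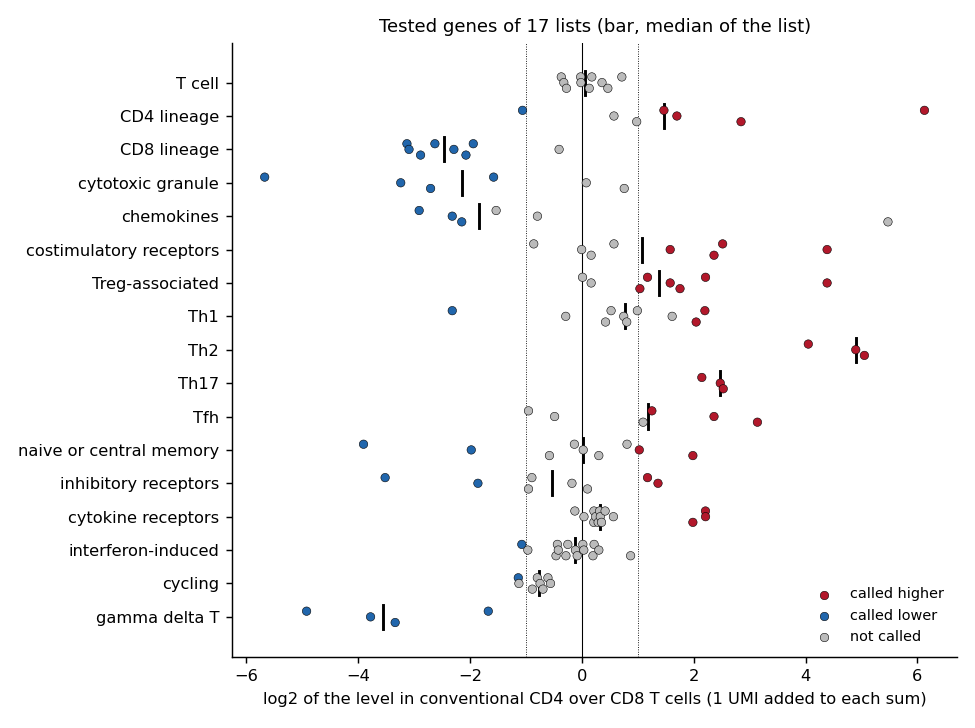
Log2 ratio of the level in conventional CD4 over CD8 T cells (x axis) for the compared genes of 17 lists (y axis), with a bar at the median of each list, dotted lines at 2-fold, and colors for genes called higher (red), lower (blue) or not called (gray). Genes of the CD8 lineage and cytotoxic granules lie mostly to the left, with medians of -2.46 and -2.14, and T cell genes lie around 0.

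Helper lists were mixed. Of the 10 Th1 genes, 2 were called higher and 1 lower. *Il18r1* and *Il18rap*, the 2 chains of the IL-18 receptor, were at 217 and 86.7 CPM in members and 47.4 and 21.1 CPM in CD8 T cells, higher in all 6 runs. *Ifng* was at 229 CPM (208 to 251) against 136 CPM and was not called, being higher in 4 runs and lower in runs 3 and 4, and 35.4% of members had a UMI against 33.5% of CD8 T cells and 1.61% of macrophages. *Tbx21*, the Th1 factor T-bet, was at 52.0 and 64.1 CPM, and *Cxcr3* at 186 and 93.5 CPM. *Il12rb2*, a chain of the IL-12 receptor, was at 44.4 and 14.6 CPM and higher in 3 of 6 runs.

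Of the 10 Th2 genes only 3 passed the filter, *Ccr4*, *Il1rl1* and *Areg*, all called higher. In CD8 T cells they were at 0.694, 2.78 and 5.41 CPM. At such levels the filter could be passed only with a level in members more than 2-fold higher. The calls of the 3 were thus mostly fixed in advance. *Il1rl1*, the gene of the IL-33 receptor ST2, was at 82.6 CPM (70.4 to 96.4) against 2.78 CPM, a ratio of 29.8 (24.1 to 36.7), and 32 members (7.77%) had a UMI against 0.362% of CD8 T cells. It was at 219 and 193 CPM in runs 4 and 5, at 25.5 and 15.1 CPM in runs 1 and 3, and at 0 in runs 2 and 6, where 1 UMI is worth 16.6 and 21.98 CPM. Without run 1 the ratio was 95.4, without run 4 it was 14.7, and in run 1 alone it was 3.45. In the 24 *Foxp3* cells *Il1rl1* stood at 543 CPM, *Areg* at 236 CPM and *Ccr4* at 35.9 CPM, all above the members. *Areg*, the gene of the growth factor amphiregulin, was at 89.2 and 5.41 CPM, and 12 of 32 members with an *Il1rl1* UMI also had an *Areg* UMI. *Il5* was below the filter, with 32 UMIs in 7 members (16.3 CPM) against 4 UMIs in all CD8 T cells, and all 7 members with *Il5* had *Il1rl1*. *Il13* had 29 UMIs, 22 of them in 1 cell, and *Il4* had 6. Of the members with an *Il1rl1* UMI, 4 (12.5%) also had an *Ifng* UMI and 25 (78.1%) a *Gata3* UMI.

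Both RefSeq start sites of *Il1rl1* (GRCm38.p6, chr1:40429320-40429619 and chr1:40439379-40439678, plus strand) are shown because the gene marks a cluster of members described below. Capitals mark the GATA motif AGATAA on either strand and, in the second window, also the NFAT core. The GATA motif was in 11.2% of all windows and in 2 of the 19 of the leading genes, both of *Il1rl1*, and no match in these windows overlapped another.
Il1rl1 first start: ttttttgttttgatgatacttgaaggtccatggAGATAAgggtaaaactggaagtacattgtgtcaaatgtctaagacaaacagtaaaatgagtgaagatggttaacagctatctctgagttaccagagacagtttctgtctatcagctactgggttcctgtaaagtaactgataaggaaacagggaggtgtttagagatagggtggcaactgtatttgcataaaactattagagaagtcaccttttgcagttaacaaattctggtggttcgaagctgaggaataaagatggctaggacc
Il1rl1 second start: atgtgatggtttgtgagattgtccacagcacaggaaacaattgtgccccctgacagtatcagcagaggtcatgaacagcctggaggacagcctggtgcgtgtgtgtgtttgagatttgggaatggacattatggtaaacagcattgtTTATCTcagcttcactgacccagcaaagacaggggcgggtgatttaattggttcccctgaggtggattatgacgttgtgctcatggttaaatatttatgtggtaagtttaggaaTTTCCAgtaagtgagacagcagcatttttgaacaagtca

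Of the 10 Th17 genes, 3 passed the filter and were called higher. *Rora*, a nuclear receptor that Th17 and other T cells express, was at 630 and 142 CPM, and *Tmem176a* and *Tmem176b* at 61.7 and 62.2 CPM against 11.2 and 10.9 CPM. The defining genes were scarce, with 1 UMI of *Il17a* in all members, 5 of *Il17f* and 0 of *Il22*. Of the 10 Tfh genes, 6 passed and 3 were higher, namely *Icos*, *Slamf6* (63.2 and 26.7 CPM) and *Maf*. *Maf*, a factor that drives IL-10, IL-4 and IL-21, was at 336 CPM (311 to 363) against 38.2 CPM and higher in all 6 runs. *Bcl6*, the Tfh factor, was at 36.7 and 17.4 CPM and not called, *Cxcr5* had 6 UMIs in members, and *Il21* had 7 UMIs in 5 members.

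Although no member had a *Foxp3* UMI, genes that Tregs also express were present. Of the 10 on the list, 8 passed the filter, of which 6 were called higher and 0 lower. *Ctla4*, an inhibitory receptor, was at 245 and 109 CPM, *Il2ra*, the gene of CD25, at 38.8 and 8.46 CPM, *Nrp1* at 54.6 and 16.3 CPM, and *Capg* at 218 and 106 CPM. *Ikzf2*, the gene of Helios, was at 197 and 196 CPM. In the members 96 cells had an *Ikzf2* UMI, 42 an *Il2ra* UMI and 19 both. Without all members that had a UMI of *Ikzf2* or *Il2ra*, 262 genes were called higher and 199 lower, with direction asked in 2 runs. Of the list 3 were then higher and 2 lower. Both genes are on the list, and CD8 T cells with their UMIs were kept. The shift in the list was thus partly fixed in advance. A *Foxp3* UMI was seen in 183 of all cells kept, and the number of Tregs among the members was not tested.

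Inhibitory receptors were divided. Of 8 compared genes, *Ctla4* and *Btla* (20.9 and 8.32 CPM) were called higher and *Lag3* (12.7 and 48.0 CPM) and *Cd160* (4.59 and 58.3 CPM) lower. *Pdcd1*, which encodes PD-1, was at 134 CPM (118 to 151) against 260 CPM, lower in all 6 runs and short of the 2-fold call. Naive and central memory genes were also divided. *Il7r*, the IL-7 receptor (318 and 80.4 CPM), and *S1pr1*, a receptor for egress (98.9 and 48.8 CPM), were higher, and *Dapl1* was lower. *Tcf7* was at 160 and 91.4 CPM, higher in all 6 runs and not called, and *Ccr7* at 52.0 and 78.4 CPM. Of the 6 compared genes of tissue residency, *Rgs1* (1933 and 877 CPM), a regulator of chemokine receptor signaling, was called higher and *Itgae* (21.4 and 77.4 CPM), which encodes the integrin CD103, lower. Cytokine receptors were called higher in 3 of 14 genes, *Il7r*, *Il2ra* and *Il6ra* (33.1 and 7.26 CPM).

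*F2rl1*, the gene altered in the PAR2 G37I mice, had 7 UMIs in 6 members (3.57 CPM, 1.44 to 7.36) and stood at 10.0 CPM in CD8 T cells. Both levels averaged below the filter. *F2r*, which encodes PAR1, was at 29.6 and 53.4 CPM and lower in all 6 runs, without reaching the call. Of 15 interferon-induced genes, 0 were called higher and 1 lower (*Usp18*, 12.2 and 26.8 CPM), with a median log2 fold of -0.11. Over all compared genes 3.66% were called higher and 2.08% lower. Counts near these shares, here and in the lists that follow, say little about a list. Single genes differed both ways, with *Ly6a* at 430 and 235 CPM and *Mx1* at 11.7 and 23.9 CPM. Cycling genes were at a median log2 fold of -0.77, with 1 of 8 called lower (*Ccnb2*, 14.3 and 32.5 CPM). Without run 1 all 8 were called lower, with direction asked in 2 runs. Of the immediate early genes *Fos* (542 and 269 CPM) was called higher, and 0 of 6 heat shock genes were called.

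Several genes of highest fold belong to none of these groups. *Serpinb1a*, a protease inhibitor, was at 72.4 CPM (61.0 to 85.4) against 1.94 CPM. It was at 107 CPM in run 1, between 0 and 28.4 CPM in the others, and its ratio of 37.4 became 11.01 without run 1. *Ramp3*, which modifies receptors for adrenomedullin and calcitonin-related peptides, was at 602 and 40.5 CPM and higher in 6 of 6 runs, and *Ramp1* of the same family at 97.4 and 7.44 CPM. *Trat1*, an adaptor of the T cell receptor, was at 109 and 7.06 CPM, and *Krt83* at 128 and 8.65 CPM. *Penk*, the gene of proenkephalin, had 259 UMIs in 19 members, 83 of them in 1 cell. *Il1r2*, a decoy receptor for IL-1, had 47 UMIs in 14 members, 20 of them in the member that held the dendritic cell genes, and its ratio of 27.1 was 16.3 without the 3 members named above. *Nav2*, *Plagl1*, *Hlf*, *Pxdc1*, *Cpne7* and *Tiam1*, the rest of the 20, were between 30.6 and 40.8 CPM in members and at most 3.05 CPM in CD8 T cells. Several were higher still in the *Foxp3* cells, namely *Ramp1* (271 CPM), *Il1r2* (195 CPM), *Penk* (143 CPM), *Tiam1* (102 CPM), *Plagl1* (92.2 CPM) and *Nav2* (76.8 CPM). Below the members there were *Ramp3* (236 CPM), *Krt83* (56.3 CPM), *Trat1* (35.9 CPM) and *Hlf* (10.2 CPM), and *Serpinb1a*, *Pxdc1* and *Cpne7* were at 0.

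The members fell into 7 clusters when they were grouped without the 6 genes of the rule, mitochondrial genes, *Xist* and T cell receptor V genes. The clusters are named by number and leading genes, and their levels describe the grouping and test nothing. Cluster 1 had 117 members (28.4%, 24.1 to 33.0) and was led by *Slamf6*, *Klf2*, *S1pr1*, *Izumo1r* and *Socs3*. *Klf2*, which drives *S1pr1* and egress, was at 737 CPM here and at most 282 CPM in the other clusters, and *Il7r* was at 503 CPM. The cluster held 43 members of run 1 and 43 of run 4.

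Clusters 2 and 3 came mostly from run 1, with 94 of 109 and 62 of 70 members. Cluster 2 (26.5%) was led by *Socs2*, *Ssbp2*, *Ccl5*, *Dgkd* and *Gzmk*. *Ccl5* stood at 3268 CPM, *Gzmk* at 147 CPM and *Ifng* at 346 CPM. Cluster 3 (16.99%) was led by *Serpinb1a*, *Gm19585*, *Il12rb2*, *Il18rap* and *Satb1*. *Il18r1* was at 481 CPM, *Cxcr6*, a chemokine receptor of tissue T cells, at 893 CPM, *Icos* at 1273 CPM, and *Ifng* at 290 CPM. In run 4, 6 of 92 members were in cluster 2 and 2 in cluster 3.

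**Figure D5:**
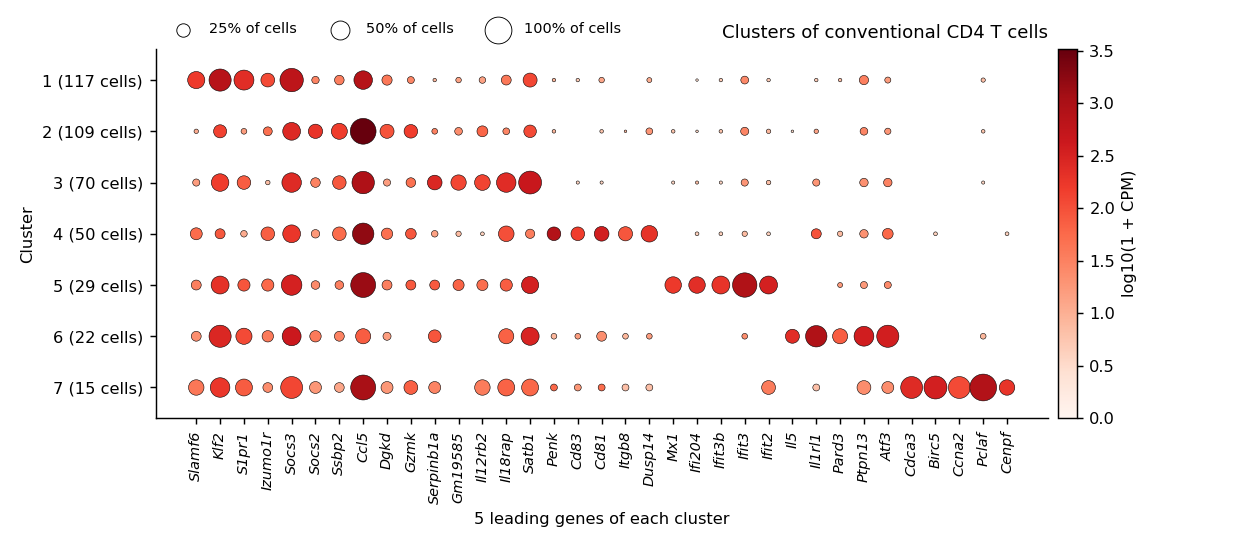
Levels of the 5 leading genes of each cluster (x axis) in the 7 clusters of conventional CD4 T cells (y axis, with the number of members). Color gives log10(1 + CPM) and dot area the percent of members with a UMI. *Penk* reaches 811 CPM in cluster 4, *Ifit3* 873 CPM in cluster 5 and *Il1rl1* 889 CPM in cluster 6.

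Cluster 4 had 50 members (12.1%, 9.14 to 15.7), 20 of them of run 4 and 19 of run 1, and was led by *Penk*, *Cd83*, *Cd81*, *Itgb8* and *Dusp14*. Some of its levels go against the label of conventional cells. *Ikzf2* was at 781 CPM (35 of 50 members) and *Tnfrsf9* at 438 CPM (28 members). *Ctla4* was at 636 CPM (38 members) and *Tnfrsf4* at 1199 CPM (48 members). All are genes of the Treg-associated list, but *Ikzf2* also stood at 196 CPM in CD8 T cells. Of the same list, *Nrp1* was among the 10 leading genes of cluster 1, and *Il10* was higher in cluster 1 than here. Some other genes of the list are not given for this cluster. *Pdcd1* was at 404 CPM, *Il10* at 16.8 CPM, and *Cd40lg* at 16.8 CPM, the lowest of the 7 clusters. The 3 members with epithelial and dendritic cell genes were in this cluster, and 18 of its members had a UMI of 8 markers of other lineages (72 of all members did). Without this cluster 226 genes were called higher and 171 lower, with direction asked in 2 runs. The ratio was then 1.35 for *Penk* and 7.98 for *Il1r2*, and of the Treg-associated genes 4 were higher and 2 lower. The cluster was formed from these values and no CD8 T cell was left out, so these changes test nothing.

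Cluster 5 had 29 members (7.04%), 23 of run 1 and 5 of run 4, and was led by *Mx1*, *Ifi204*, *Ifit3b*, *Ifit3* and *Ifit2*, antiviral genes induced by type I interferon. *Isg15* was at 1292 CPM and 25 of the 29 members had a UMI. *Ifit3* was at 873 CPM (714 to 1055) and at 0 to 28.4 CPM in the other clusters.

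Cluster 6 had 22 members (5.34%, 3.38 to 7.97), of which 15 were of run 4, 4 of run 1 and 3 of run 5. It was led by *Il5*, *Il1rl1*, *Pard3*, *Ptpn13* and *Atf3*. *Il5* had 31 UMIs here (230 CPM, 6 members) and 1 elsewhere, *Il1rl1* was at 889 CPM, *Gata3* at 697 CPM and *Areg* at 430 CPM. The highest levels of *Tnfsf8* (1557 CPM), *Tnfsf11* (437 CPM) and *Cd40lg* (215 CPM, 12 members) were also found in this cluster. *Ifng* and *Gzmk* had 0 UMIs, where the 3-UMI floor is 22.2 CPM, *Nkg7* had 1 UMI, and *Ccl5* was at 74.1 CPM.

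Cluster 7 had 15 members (3.64%), 12 of run 1, with a median of 11099 UMIs, and was led by the cell division genes *Cdca3*, *Birc5*, *Ccna2*, *Pclaf* and *Cenpf*. *Pclaf* was detected in all 15 and *Mki67* in 13 of them.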

How the data were processed

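Single cell transcripts were measured in CD4/CD8 bead-selected, frozen and thawed tumor cells, in 3 samples per genotype, on the 10x Genomics platform. Raw UMI counts were deposited by the authors as 1 sparse matrix of 31053 genes that holds all 6 samples. The submitters' processing notes list Cell Ranger 3.0.2 and mm10, and any filter on cells before deposit is not given in the sources used here. Column values of other samples left out numbered 0. Sample names could not be linked to barcodes, so no genotype test was run.

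Levels are UMIs summed over cells and scaled to 1000000 (CPM), with exact 95% Poisson intervals, and ratios have exact conditional intervals. The rule for the cells, the 33 gene lists and the named genes (the 20 of highest and of lowest fold among those called, genes of the lists, the 5 leading genes of a cluster) were chosen with earlier results of these data known. Members were clustered after scaling to 10000 UMIs and log transformation, on 1500 variable genes, 20 principal components and 15 neighbors, by the Leiden method at resolution 0.6. Leading genes were detected in at least 25% of a cluster. No doublet caller was run, and members with UMIs of other lineages were left out in an alternative. The comparison was run on simulated counts with known changes, drawn from the same profile in every run. Differences between runs and UMIs gathered in single cells were not simulated, so the real calls are not tested by it. Alternatives with run 1 alone, reweighted CD8 T cells, or without cluster 4 or the 3 members were added after seeing the data. Symbols matched GENCODE M21 for 30431 genes (98.0%). Promoters are from RefSeq. CD11c-selected cells were not used here. Some genes of the lists are not reported here. Scripts ran in Python 3.11.15 with leidenalg 0.10.2, matplotlib 3.10.9, numpy 2.4.6, scikit-learn 1.9.0, scipy 1.17.1 and pandas 2.3.3.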

Additional observations from a re-analysis of the deposited data

How the results depend on the processing

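No paired analysis was possible because the barcodes carry no sample or replicate number, so genotypes could not be paired. The 2 cell classes were set side by side within runs, by direction only. The number of members was 176 when 2 *Cd4* UMIs were asked for and 205 when cells were thinned before the rule, and over the runs left out in turn it ranged from 155 (without run 1) to 401. With no minimum level 430 genes were called higher and 513 lower, and with a mean of at least 50 CPM 94 and 33, which follows from the number of genes compared (18481 and 2660). Leaving out each run in turn gave 224 (without run 4) to 392 (without run 1) higher genes and 140 to 283 (without run 1) lower genes. Without run 1, 4 or 5 direction was asked in 2 runs and not 3, an easier rule, so these counts are not on equal terms with the main ones. Without run 1, 235 of the 253 higher and 114 of the 144 lower genes were still called. Runs weighted equally gave 266 and 186, the mean over cells 242 and 148, and CD8 T cells weighted to the runs of the members 232 and 120. Run 1 alone gave 273 and 112, with direction asked in that run only. Higher genes made up 63.7% of the calls, 45.6% with no minimum level and 74.0% at 50 CPM. For the 40 genes of highest and lowest fold, 840 ratios were recomputed over 21 settings. Of these, 695 stayed within the counting interval, 145 moved beyond it and 0 changed direction. The settings on the minimum level and on the sum alone leave the ratio as it is, so all 40 stayed in each. The 40 genes were picked for extreme ratios in the same cells, so the kept direction is no test. The number of clusters was 6 at resolution 0.4, 10 at resolution 1, 6 with 30 neighbors and 8 with 1000 variable genes. At resolution 0.4 clusters 2 and 3 were mostly in 1 cluster of 179 members (105 of 109 and 70 of 70), and with 30 neighbors clusters 4 and 6 were in 1 of 92 (50 of 50 and 21 of 22). Depth limits genes near 1 UMI per run, since 1 UMI in members is worth 0.850 CPM in run 1 and 21.98 CPM in run 6.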

Other observations

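Genes were also counted together in single members, as a description. Of the 98 members with a *Cd40lg* UMI, 36 (36.7%) also had an *Ifng* UMI, 11 (11.2%) an *Il1rl1* UMI and 20 (20.4%) an *Ikzf2* UMI. *Il18r1* and *Ifng* were found together in 61 members, 33.7% of those with *Il18r1* and 41.8% of those with *Ifng*. *Ikzf2* and *Tnfrsf9* were found together in 32 members, 50.8% of those with *Tnfrsf9*. A UMI of any single *Trbv* gene was found in 19 members (4.61%), and clones were not analysed.

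*Sostdc1*, of the Tfh list, had 31 UMIs in 5 members, 13 of them in 1 cell, and 1 UMI in all CD8 T cells. *Il10* had 30 UMIs in members (15.3 CPM, 10.3 to 21.8) and stood at 2.02 CPM in CD8 T cells, and its level in cluster 1 was 40.9 CPM. *Ccr8*, a chemokine receptor of Th2 and regulatory T cells, was at 11.7 CPM (7.44 to 17.6) in members and 0.668 CPM in CD8 T cells, higher in 5 of 6 runs.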
